A study of Mus musculus with 18 samples.

Results

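The microRNAs (miRNAs) mmu-miR-192, mmu-miR-194 and mmu-miR-215, written here without the species prefix, were examined in the livers of male Muta™Mouse after repeated benzo(a)pyrene (BaP) dosing. They were found on the array by name, as 3 of its 576 miRNA names, with 6 of 1712 probes and 60 of 11540 spots that were not controls. Muta™Mouse is a transgenic strain that carries a bacterial lacZ gene for scoring mutations, and BaP is a polycyclic aromatic hydrocarbon whose metabolites bind DNA. All animals, controls included, carried the transgene, were 25 weeks old and received olive oil by gavage each day for 28 days. The oil held no BaP in the vehicle group (3 arrays) and BaP at 25, 50 or 75 mg/kg/day in the dosed groups (5 arrays each), and liver was taken 3 days after the last dose. The paper labelled miRNA of 5 vehicle animals and 5 animals per dose, and left out arrays after a quality check without naming their group. Every dosed group has 5 arrays here, so the arrays missing from this set are vehicle arrays. The 3 vehicle arrays here are the reference of every comparison with vehicle. Each array held the RNA of 1 animal, and the replicate numbers used below only name arrays.

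These miRNAs come from a pair of clusters that each hold a copy of the gene for miR-194. The clusters are known for their expression in liver and gut epithelium, and as miRNAs that p53 can raise after DNA damage. miR-192 and miR-215 share a seed, the stretch of a miRNA that pairs with target mRNAs, and both are known to restrain cell cycle genes. The question was whether BaP, whose metabolites damage DNA, moved them in liver.

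The mature sequences below show which members can be told apart by sequence and which share targets. They are from RefSeq (GRCm38.p6), written 5′ to 3′ with the seed (bases 2 to 8) in capitals, and were matched to the array's names, which carry no arm suffix, by miRNA number (3 of 3).
mmu-miR-192-5p: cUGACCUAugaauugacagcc
mmu-miR-215-5p: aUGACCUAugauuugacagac
mmu-miR-194-5p: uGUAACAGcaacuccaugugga
The 1 seed of miR-192-5p and miR-215-5p was found in these 2 alone of 1679 mature mouse sequences, and that of miR-194-5p in 1. Over 21 positions, miR-192-5p and miR-215-5p were identical at 18 and differed by C1A, A12U and C20A, with the base of miR-192-5p first and positions counted from the 5′ end. Mir194-1 and Mir215 lie on the plus strand of chromosome 1, at chr1:185313319-185313385 and chr1:185313581-185313692, 195 bases apart and within the span of Iars2, which runs on the minus strand. Mir194-2 and Mir192 lie on the plus strand of chromosome 19, at chr19:6264643-6264728 and chr19:6264844-6264932, 115 bases apart and between Atg2a and Gm14963. Both copies of the miR-194 gene give the identical miR-194-5p, so its signal cannot be divided between the clusters. The scanner files name no genome build, and these positions are RefSeq's.

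Each member had 2 probes of 10 spots. Over all arrays, between 5.72% and 16.5% of the spots carried the scanner's flag for a signal well above background, and no spot was saturated. Signal was normalised between arrays by cyclic loess on the log2 scale without background subtraction, which makes log2 changes of dim probes smaller than those of the RNA. A miRNA was tested where at least 1 probe was well above background in 4 of 5 arrays, or 3 of 3 vehicle arrays, of at least 1 group. This held for 69 names, among them miR-192 and miR-194 but not miR-215. The arrays lay on 3 slides. On slide 1 were 1 vehicle array and 2 arrays per dose. Slide 2 had no vehicle array and carried 2 arrays at 50 mg/kg/day and 2 at the top dose. Slide 3 carried 2 vehicle arrays, 3 at 25 mg/kg/day and 1 at each higher dose. The hepatocyte markers miR-122 and miR-148a were present and miR-802 was not. None of 5 miRNAs that mark gut and biliary epithelium (the miR-200 family) and none of 3 muscle miRNAs was present, while 3 of 6 blood cell, 1 of 2 endothelial and 1 of 5 mesenchymal markers were. The log2 of the summed linear signal of miR-122 and miR-148a, which miR-122 dominates, lay between 13.53 and 13.57 in vehicle, 13.45 and 13.86 at 25, 13.37 and 13.64 at 50, and 13.49 and 13.87 at 75 mg/kg/day. In bulk liver, fewer cells of a type and less RNA per cell cannot be told apart.

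miR-215, the miR-192 relative encoded on chromosome 1, did not rise above background in any group. Its probes A_54_P1551 and A_54_P1552 were well above background on 0 of 18 arrays, with 2 of 180 spots (1.11%) of each probe carrying the flag. The signal of A_54_P1551 lay between 0.846 and 0.967 times, and that of A_54_P1552 between 0.868 and 0.978 times, the median of the negative controls of the same array. On all arrays both probes thus read below the negative control median, at 75 mg/kg/day as in vehicle. The scanner software called miR-215 not detected on all 18 arrays. miR-215 therefore has only a bound here, and neither a fold change nor a test is given. A value at background does not show that the RNA is absent.

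**Figure D1:**
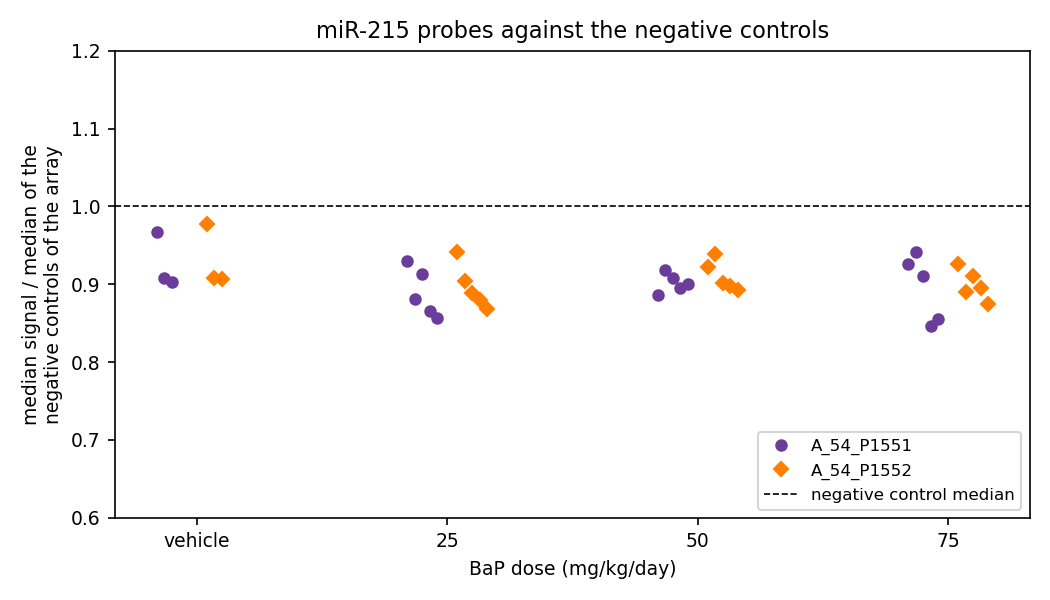
Median signal of the 2 miR-215 probes divided by the median signal of the negative controls of the same array (y axis, a ratio without unit) by BaP dose (x axis, mg/kg/day), 1 point per probe and array, with the dashed line at a ratio of 1. All points lie below the line in every group, between 0.846 and 0.978.

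The probes of miR-192 and miR-194 rose above background. The miR-192 probes A_54_P2461 and A_54_P2460 were well above background on 18 of 18 arrays, with 179 and 178 of 180 spots carrying the flag. Before normalisation their signals ran from 327.5 to 1269.5 and from 85.5 to 211 over the arrays. Of the miR-194 probes, A_54_P1151 was above background on 18 of 18 arrays and A_54_P1152 on 15 of 18. The 3 arrays on which A_54_P1152 was not were 50 mg/kg/day replicate 1 and 25 mg/kg/day replicates 4 and 5, which had the 3 lowest raw total signals of miR-194 (25.7, 10.2 and 16.6).

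No change of miR-192 with BaP passed the test in this normalisation. The normalised log2 signal of miR-192 was 8.57, 8.09 and 8.16 in vehicle replicates 1 to 3. It was 8.55, 8.51, 8.26, 8.24 and 8.25 in replicates 1 to 5 at 25 mg/kg/day. At 50 mg/kg/day it was 8.48, 8.50, 8.12, 8.06 and 8.14, and at 75 mg/kg/day it was 8.45, 8.62, 8.03, 8.15 and 8.14. Each group held high and low arrays, and every dosed group overlapped the vehicle group. The high arrays were those of slide 1 (8.45 to 8.62), while slides 2 (8.03 to 8.15) and 3 (8.09 to 8.26) were lower, and slide explained 91.9% of the variance of miR-192. Dose explained 26.2% of what remained, and for miR-194 7.29% of what remained after slide. With few arrays, the dose groups take up some share even with no effect of dose, so this share alone shows none. The slides also differed in background, with negative control medians of 42 to 55 on slide 1, 71 to 76 on slide 2 and 63 to 71 on slide 3. Each slide had its own scan date. The part of background or scan date in the slide levels was not tested. The vehicle mean was 8.27 ± 0.26 (SD, n = 3), and the dosed groups had means of, by rising dose, 8.36 ± 0.15, 8.26 ± 0.21 and 8.28 ± 0.25 (SD, n = 5 each).

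**Figure D2:**
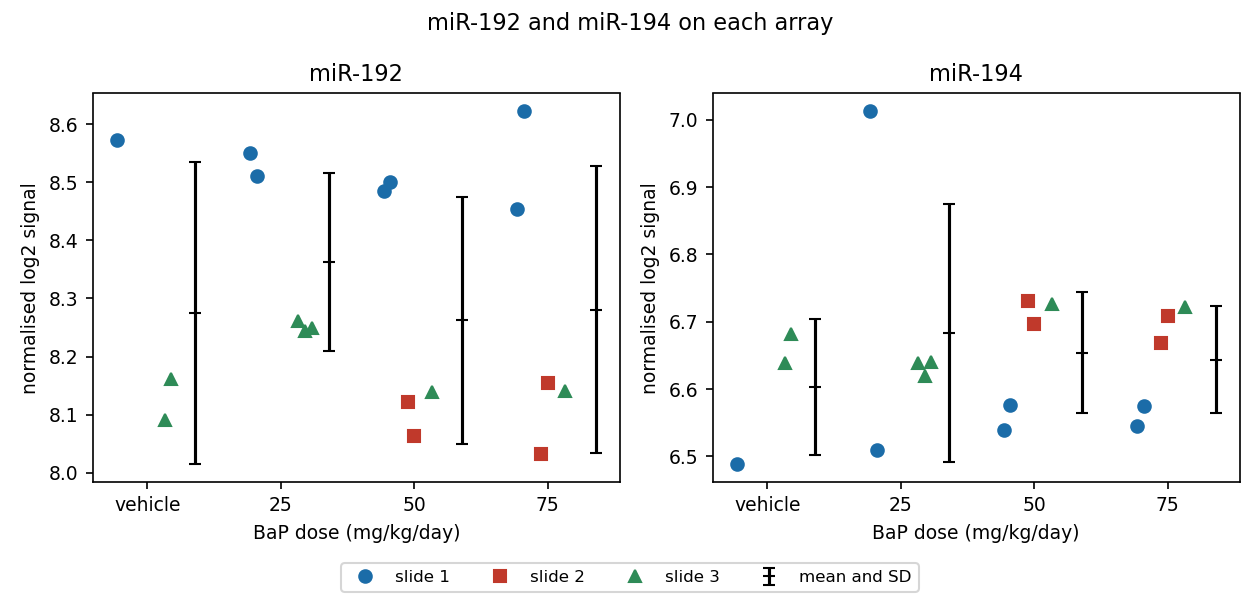
Normalised log2 signal (y axis) of miR-192 (left) and miR-194 (right) on each array by BaP dose (x axis, mg/kg/day), with the slide given by the symbol and the group mean and SD as black bars. miR-192 is high on slide 1 (8.45 to 8.62) in every group, and 1 array at 25 mg/kg/day stands apart for miR-194 (7.01).

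With slide as a block, limma gave miR-192 a log2 change against vehicle of 0.064 ± 0.046 at 25 mg/kg/day (SE; 95% interval -0.033 to 0.16; adjusted P = 0.550). At 50 mg/kg/day the change was -0.012 ± 0.050 (SE; 95% interval -0.12 to 0.094; adjusted P = 0.920). At 75 mg/kg/day it was 0.0068 ± 0.050 (SE; 95% interval -0.099 to 0.11; adjusted P = 0.976), an interval of 0.934 to 1.08 times the vehicle signal. The slope over dose was -0.0058 ± 0.017 per 25 mg/kg/day (SE; adjusted P = 0.888), and an exact permutation test of the doses within slides (two-sided, 1587600 arrangements) gave P = 0.728. Over the 69 miRNAs tested, limma called 0% at 25, 2.9% at 50, 5.8% at 75 mg/kg/day and 10.1% for the slope, and miR-192 was among none of these. At an unadjusted P under 0.05 the shares were 10.1%, 15.9%, 26.1% and 23.2%, again without miR-192. Between neighbouring doses the changes of miR-192 were -0.076 ± 0.044 from 25 to 50 (SE; adjusted P = 0.466) and 0.018 ± 0.039 from 50 to 75 mg/kg/day (SE; adjusted P = 0.961), where 1.45% of the miRNAs were called at each step.

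Within slides, the differences of miR-192 from vehicle had no shared direction. At 25 mg/kg/day the difference was -0.042 on slide 1, where both dosed arrays were below the 1 vehicle array, and 0.13 on slide 3, where 3 of 3 dosed arrays were above both vehicle arrays. At 50 mg/kg/day it was -0.079 and 0.012, and at 75 mg/kg/day -0.034 and 0.015, on slides 1 and 3. The probes of miR-192 were also fitted one by one. At 25 mg/kg/day A_54_P2460 gave 0.098 ± 0.040 (SE; unadjusted P = 0.0283; adjusted P = 0.475 over 112 probes with limma) and A_54_P2461 gave 0.031 ± 0.068 (SE; adjusted P = 0.863). The first was the only fit of a miR-192 or miR-194 probe, over the 3 doses and the slope, with an unadjusted P under 0.05. Over the 112 probes, 0% were called at 25, 2.68% at 50, 7.14% at 75 mg/kg/day and 9.82% for the slope.

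miR-194, the cluster partner of both miR-192 and miR-215, was not called at any dose either. Its normalised log2 signal was 6.49, 6.64 and 6.68 in vehicle replicates 1 to 3. It was 7.01, 6.51, 6.64, 6.62 and 6.64 in replicates 1 to 5 at 25 mg/kg/day. At 50 mg/kg/day it was 6.54, 6.58, 6.73, 6.70 and 6.73, and at 75 mg/kg/day it was 6.55, 6.57, 6.67, 6.71 and 6.72. All dosed groups overlapped the vehicle group, and 25 mg/kg/day replicate 1 stood above all other arrays. The vehicle mean was 6.60 ± 0.10 (SD, n = 3), and by rising dose the other means were 6.68 ± 0.19, 6.65 ± 0.090 and 6.64 ± 0.080 (SD, n = 5 each).

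For miR-194, limma gave a log2 change against vehicle of 0.085 ± 0.087 at 25 mg/kg/day (SE; 95% interval -0.10 to 0.27; adjusted P = 0.645). The change was 0.035 ± 0.095 at 50 mg/kg/day (SE; 95% interval -0.17 to 0.24; adjusted P = 0.910). It was 0.025 ± 0.095 at 75 mg/kg/day (SE; 95% interval -0.18 to 0.23; adjusted P = 0.967), an interval of 0.885 to 1.17 times the vehicle signal. The slope over dose was -0.00054 ± 0.030 per 25 mg/kg/day (SE; adjusted P = 0.993; exact permutation within slides, two-sided, P = 0.990). The intervals of miR-194 were wider than those of miR-192, with a residual SD of 0.13 against 0.059 on the log2 scale. From 25 to 50 mg/kg/day miR-194 changed by -0.050 ± 0.083 (SE; limma adjusted P = 0.850), and from 50 to 75 mg/kg/day by -0.010 ± 0.075 (SE; limma adjusted P = 0.965).

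**Figure D3:**
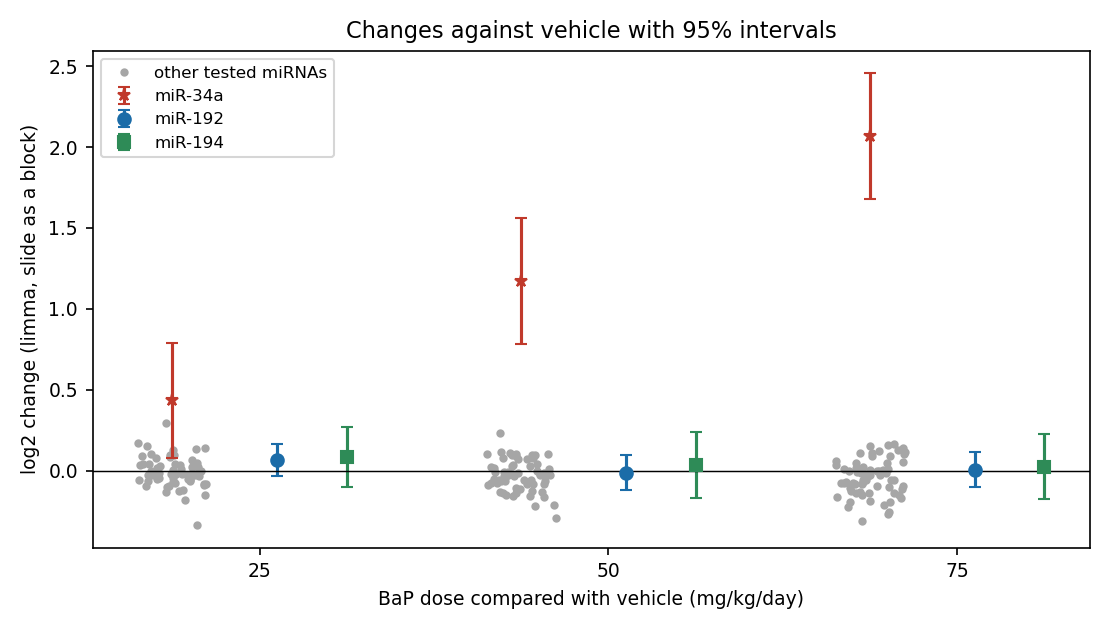
Log2 change against vehicle (y axis; limma with slide as a block) at each BaP dose (x axis, mg/kg/day) for miR-192, miR-194 and, as a reference point, miR-34a, with 95% intervals, and as grey points for the other tested miRNAs. The intervals of miR-192 and miR-194 include 0 at every dose, while that of miR-34a, at 2.07 for 75 mg/kg/day, does not.

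A single array set the spread of miR-194. 25 mg/kg/day replicate 1 had the largest share of spots well above background (16.5%) and the largest raw total signal of miR-194 (142), and the part of brightness in its value was not tested. Without this array, chosen after its value was seen, the other arrays of slide 1 lay between 6.49 and 6.58, slide 2 between 6.67 and 6.73 and slide 3 between 6.62 and 6.73. Slide then explained 80.2% of the variance of miR-194, against 10.8% with all arrays. The high slide of miR-192 was thus the low slide of miR-194 on those 17 arrays. Without this array limma put miR-194 at -0.014 ± 0.026 for 25 mg/kg/day (SE; adjusted P = 0.756). The dose of 50 mg/kg/day gave 0.068 ± 0.027 (SE; unadjusted P = 0.0266; adjusted P = 0.152) and that of 75 mg/kg/day gave 0.058 ± 0.027 (SE; adjusted P = 0.157). The slope was 0.022 ± 0.010 per 25 mg/kg/day (SE; limma unadjusted P = 0.0433; adjusted P = 0.142), so none was past the threshold.

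Within slides the difference of miR-194 from vehicle at 25 mg/kg/day was 0.27 on slide 1, which holds that array, and -0.028 on slide 3. At 50 mg/kg/day it was 0.069 and 0.066, and at 75 mg/kg/day 0.071 and 0.062, on slides 1 and 3. At 50 and 75 mg/kg/day all 3 dosed arrays of these slides were above every vehicle array of their slide, each on a difference under 0.1 on the log2 scale. This did not hold for the brighter probe A_54_P1151 alone. On slide 1, with its 1 vehicle array at 6.83, that probe read 6.80 in 50 mg/kg/day replicate 1 and 6.81 in 75 mg/kg/day replicate 1. Fitted alone it gave -0.0089 ± 0.10 and -0.011 ± 0.10 at these doses, and the dimmer A_54_P1152 gave 0.078 ± 0.090 and 0.060 ± 0.090 (SE). The share of all tested miRNAs with such a separation within slides was not computed. No vehicle array was on slide 2, so its 4 dosed arrays have no such comparison. Over all slides, 0 of these 2 miRNAs had dosed and vehicle groups that did not overlap at 25, 50 or 75 mg/kg/day, against 4.35%, 11.6% and 13% of the 69 miRNAs tested.

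miR-192 and miR-194 were then compared within each array, since Mir194-2 and Mir192 lie in 1 cluster. The slope over dose of the difference, miR-192 minus miR-194, was -0.0052 ± 0.035 per 25 mg/kg/day on the log2 scale (SE; exact permutation within slides, two-sided, P = 0.902). With the scanner's total gene signal in place of the normalised signal it was -0.028 ± 0.084 (SE; exact permutation P = 0.760). miR-215 could not enter, so 1 pair was tested and no adjustment was needed. A change of the pair relative to each other was thus not detected.

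Across animals, no common variation of miR-192 and miR-194 was detected once slide means were removed. Over 18 arrays Pearson's r was 0.040 (100000 permutations within slides, P = 0.903; adjusted P = 0.903 over 4 relations) and Spearman's rho was -0.036 (permutation P = 0.875; adjusted P = 0.875). Without the 2 arrays farthest from the median of miR-192, r was 0.11, and without 25 mg/kg/day replicate 1 it was -0.18. Within slide 1 r was 0.17 (7 arrays) and within slide 3 it was -0.55 (7 arrays), while slide 2, with 4 arrays, was too small. On the total gene signal r was 0.11 (permutation P = 0.685; adjusted P = 0.903) and rho was 0.21 (permutation P = 0.409; adjusted P = 0.773).

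**Figure D4:**
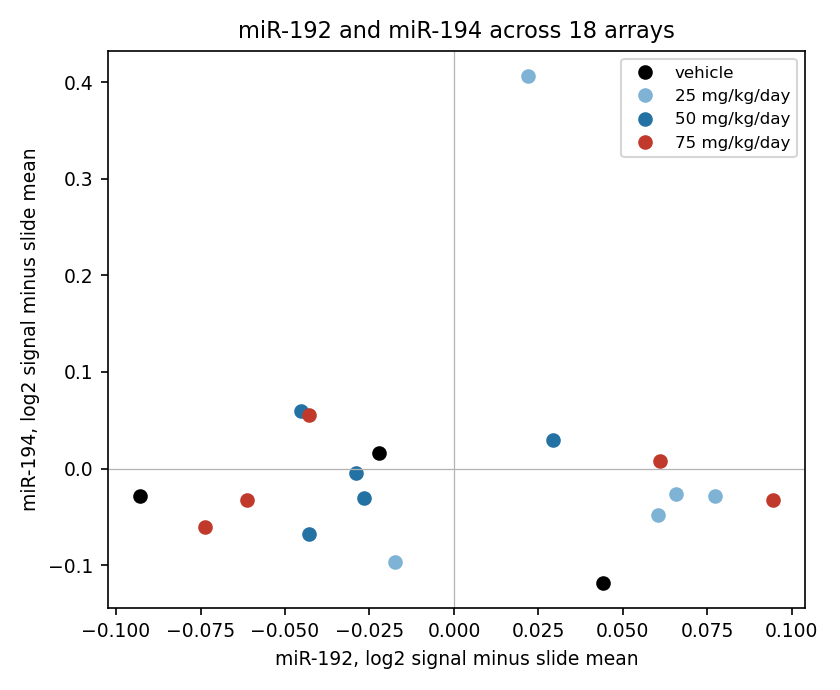
Log2 signal of miR-194 (y axis) against that of miR-192 (x axis), each minus the mean of its slide, 1 point per array (18) coloured by dose. The points show no common slope (r = 0.040), and 1 array at 25 mg/kg/day stands high for miR-194.

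The brightness of the array was set beside both members. Between the share of spots well above background and miR-194, r was 0.65 (100000 permutations within slides, P = 0.0158; adjusted P = 0.0633 over 4 relations) and rho was 0.57 (permutation P = 0.00867; adjusted P = 0.0347). Without the 2 arrays farthest from the median share r was 0.33, so the relation rested in part on them. Within slides 1 and 3 it was 0.77 and 0.61. For miR-192 r was -0.092 (permutation P = 0.729; adjusted P = 0.903) and rho was -0.15 (permutation P = 0.580; adjusted P = 0.773), and r was -0.31 without the 2 farthest arrays. Within slides 1 and 3 it was 0.40 and -0.67.

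By the same measure, Pearson's r over 18 arrays after slide means were removed, the tested miRNAs most like miR-192 were miR-223 (0.49), miR-22 (0.41) and miR-23b (0.38), of 68 compared. miR-223 is known from myeloid blood cells. Those most like miR-194 were miR-26a (0.86), miR-30a (0.85) and miR-16 (0.76). Without 25 mg/kg/day replicate 1, the values of miR-26a, miR-30a and miR-16 with miR-194 were -0.18, 0.28 and -0.087, so this likeness rested on 1 array. The values of miR-223, miR-22 and miR-23b with miR-192 were then 0.50, 0.40 and 0.39. miR-122, the most abundant hepatocyte miRNA in general knowledge, gave 0.36 with miR-192 and 0.12 with miR-194 over all arrays. All of these share arrays, depth and normalisation and are given as a description.

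Other p53-linked miRNAs were counted beside these members. Of 12 such names, all on the array, 6 were tested, and 1 rose, miR-34a, a direct p53 target. Its log2 change was 0.43 ± 0.17 at the lowest dose (SE; limma adjusted P = 0.378), 1.17 ± 0.18 at the middle dose (SE; limma adjusted P = 0.000714) and 2.07 ± 0.18 at the top dose (SE; limma adjusted P = 5.4e-07), the last 2 past the threshold. That is 1 of 6 at each of these doses, beside 2.9% (1 of 69 higher, 1 lower) and 5.8% (1 higher, 3 lower) of all miRNAs tested. None of the 6 was called lower at any dose or for the slope. The median change of the 6 was -0.0084, -0.034 and -0.088 at 25, 50 and 75 mg/kg/day, beside -0.018, -0.025 and -0.030 over all 69 miRNAs. The other 5, miR-107, miR-15a, miR-16, miR-22 and miR-29a, did not pass the threshold at any dose or for the slope. miR-22, the lowest of them at 75 mg/kg/day, gave -0.17 ± 0.10 (SE; limma adjusted P = 0.329).

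Of the hepatocyte markers that were present, neither passed the threshold at any dose or for the slope. By rising dose, miR-122 gave log2 changes of 0.15 ± 0.093, -0.019 ± 0.10 and 0.11 ± 0.10 (SE; limma unadjusted P = 0.122, 0.854 and 0.311), and its groups overlapped vehicle at every dose. miR-148a, also enriched in hepatocytes, gave -0.15 ± 0.064, -0.22 ± 0.070 and -0.22 ± 0.070 (SE; limma unadjusted P = 0.0313, 0.00638 and 0.00600; adjusted P = 0.432, 0.0880 and 0.0669). Its groups at 50 and 75 mg/kg/day did not overlap vehicle, as held for 11.6% and 13% of the 69 miRNAs tested. The part of miR-148a in the values of miR-192 and miR-194 was not tested. No cell type marker was called at 25 or 50 mg/kg/day, where 0% and 2.9% of the 69 miRNAs were. At 75 mg/kg/day, where 5.8% of them were called, 1 marker was, the mesenchymal miR-199a-3p, with a log2 change of -0.22 ± 0.048 (SE; limma adjusted P = 0.00931). It was also called for the slope, at -0.070 ± 0.015 per 25 mg/kg/day (SE; limma adjusted P = 0.00384). It was the only 1 of 5 mesenchymal markers present, and its part in the values of miR-192 and miR-194 was not tested.

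The authors' deposited table of 1 log2 value per miRNA and array gave another picture of miR-192. In that table miR-192 was 8.45, 8.38 and 8.41 in vehicle replicates 1 to 3. It was 8.24, 8.29, 7.12, 8.09 and 8.19 in replicates 1 to 5 at 25 mg/kg/day, with 7.12 the lowest of all 18 arrays (the others 7.86 to 8.45). At 50 mg/kg/day it lay between 7.98 and 8.31 and at 75 mg/kg/day between 7.86 and 8.39. All arrays at 25 and 50 mg/kg/day were below all vehicle arrays, and those at 75 mg/kg/day overlapped them. In these values, vehicle and dosed groups of 7.25%, 15.9% and 13% of the miRNAs did not overlap at 25, 50 and 75 mg/kg/day. On the slides that carried vehicle, every dosed array (5 at 25, 3 at 50 and 3 at 75 mg/kg/day) was below every vehicle array of its slide. The share of all tested miRNAs with such a separation within slides was not computed. In these values the median change of all 69 miRNAs was also below 0, at -0.11, -0.064 and -0.11 by rising dose.

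On these values limma with slide as a block gave miR-192 a change of -0.44 ± 0.18 at 25 mg/kg/day (SE; adjusted P = 0.120), where 10.1% of the miRNAs were called. Without 25 mg/kg/day replicate 3, chosen after its value was seen, the change was -0.23 ± 0.055 (SE; adjusted P = 0.0101), which is past the threshold. On those 17 arrays 24.6% of the 69 miRNAs were called at 25 mg/kg/day, all of them lower, and the median change of all 69 was -0.15. miR-192 ranked 19th from the lowest among the 69. At 50 and 75 mg/kg/day it gave -0.13 ± 0.057 and -0.14 ± 0.057 (SE; adjusted P = 0.259 and 0.0943). In the normalised signal computed here the same contrast at 25 mg/kg/day was 0.064, so the direction of miR-192 depended on which values were used, and the cause of the shift of the deposited table was not tested.

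A single spot stood apart on 25 mg/kg/day replicate 3, the array with the low deposited value. The 2 probes of miR-192 differ in brightness, so that over 20 spots the median falls in the gap between the lowest spot of A_54_P2461 and the highest of A_54_P2460. On that array the lowest spot of A_54_P2461 had a normalised log2 signal of 5.90, was not well above background and was marked as an outlier by the scanner software. The next lowest spot of that probe was at 9.25 and the highest spot of A_54_P2460 at 7.05. The median over all 20 normalised spots was 7.04 there and between 7.93 and 8.57 on the other 17 arrays. Without the lowest A_54_P2461 spot the median on that array was 7.05, the value of the highest A_54_P2460 spot. The same step gives the highest A_54_P2460 spot on every array, between 6.91 and 7.53 on the other 17. The value of 7.05 thus cannot show what that spot did to the median. At 5.90 the spot was below all A_54_P2460 spots of its array (lowest 6.75), so the middle of the 20 spots fell among those of A_54_P2460. The median over the 10 spots of A_54_P2461 was 9.59, and the value used here, the mean of the probe medians, was 8.26. Whether this spot entered the deposited value was not tested.

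**Figure D5:**
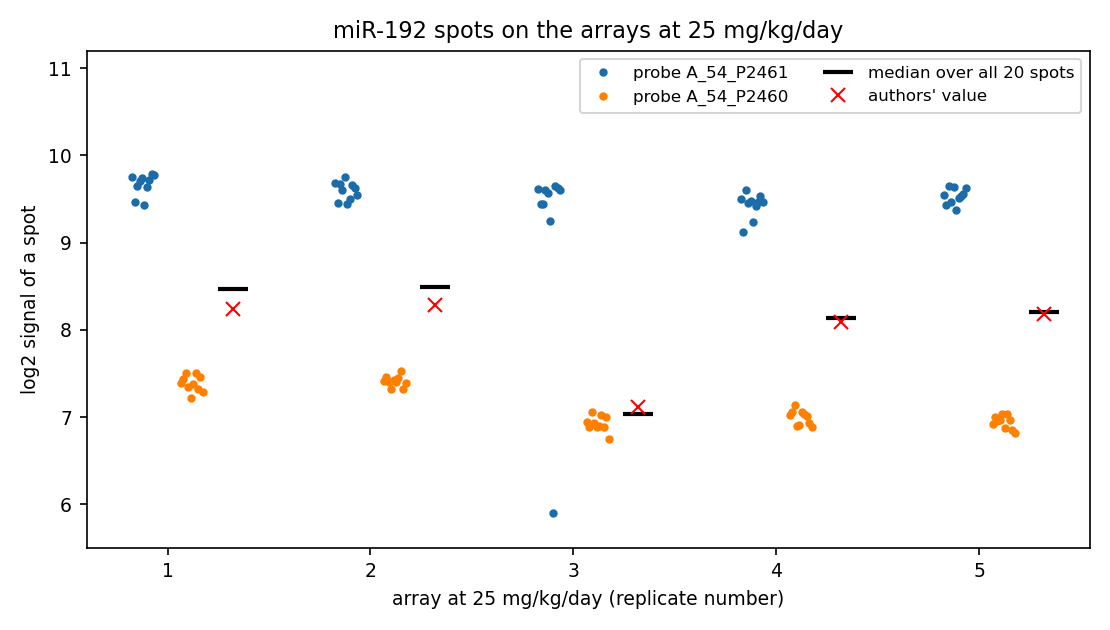
Normalised log2 signal (y axis) of each miR-192 spot on the 5 arrays at 25 mg/kg/day (x axis, replicate number), 10 spots per probe, with the median over all 20 spots as a black line and the authors' value, from their own normalisation, as a cross. On replicate 3 a single A_54_P2461 spot lies at 5.90, and the median over all spots is 7.04. Without that spot it is 7.05, the highest A_54_P2460 spot, as the same step gives on every array.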

How the data were processed

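Hepatic miRNA was measured on 18 one-colour Agilent arrays, labelled with cyanine 3. Per the file headers, Agilent Feature Extraction 10.7.3.1 read the images. The deposited scanner files give the linear intensity of each spot before any normalisation between arrays. The deposited table of 1 value per miRNA was read as log2 signal, since each column correlated with the log2 spot medians of its array at r of 0.990 to 1.000 over 574 names. Its column medians were 5.74 to 5.76, and its centring is unknown. It was used as an alternative.

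Following the study's methods, median spot signals were normalised by cyclic loess without background subtraction, with slide as a block. Outlier spots were removed, the median was taken over the spots of a probe and the mean over its miRNA's present probes. A probe was present on an array with a share of 0.5 of its spots above background. limma 3.58.1 (R 4.3.3) replaced the study's MAANOVA, was fitted to all 18 arrays and adjusted by Benjamini-Hochberg over 69 miRNAs (threshold 0.05). Permutations used Python 3.11.15. Scripts were tested on simulated data. With 18 arrays, their number limits the precision.

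The members and lists were chosen with earlier results of these data known. The miRNAs named are the members, miR-122 and miR-34a, up to 3 most alike per member, and list members past the threshold; others named (miR-107, miR-15a, miR-29a, miR-148a and miR-802) come from the lists and were added after their values were seen. No pair of arrays held identical values. Nothing in the labels ties arrays to separate extractions beyond 1 animal each. A further list of miRNAs is not reported here. Alternatives covered normalisation, background, filters, probes, slide and leaving out each array.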

Additional observations from a re-analysis of the deposited data

Results flagged for a closer look

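In 15 groups of 5 arrays, 3 arrays stood apart from their group by Dixon's test at the 95% level, where chance flags about 1 in 20 groups. That rate is only a rough guide, since the groups were different values of the same arrays and were not independent. Each group also mixed slides. The authors' log2 value of miR-192 at 25 mg/kg/day replicate 3 was 7.12 against 8.09 to 8.29 in the other 4 arrays, a gap of 0.832 of the group's range (critical value 0.710). The normalised log2 signal of miR-194 at 25 mg/kg/day replicate 1 was 7.01 against 6.51 to 6.64, a gap of 0.739 of the range. The within-array difference of miR-192 minus miR-194 at 25 mg/kg/day replicate 2 was 2.00 log2 units against 1.54 to 1.63, a gap of 0.810 of the range. That array lies on slide 1, where miR-192 was high, and the other slide 1 array of the group is the one with the high miR-194 value.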

How the results depend on the processing

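All changes here are log2 changes against vehicle or slopes per 25 mg/kg/day. There were 9 results with 293 alternative values. Those for the slope of miR-192 minus miR-194 came from the exact permutation test and had no limma P. Of the limma values, 1 passed the threshold, miR-192 at 25 mg/kg/day in the authors' table without 1 array (adjusted P = 0.0101). The others changed sign around 0 or kept it, and the cause was not tested. With array medians centred, which moved the median change of all miRNAs to -0.23, -0.25 and -0.25 at 25, 50 and 75 mg/kg/day, miR-192 gave -0.36, -0.37 and -0.34, and miR-194 gave -0.11, -0.15 and -0.15. In the authors' table miR-192 gave -0.44, -0.18 and -0.18 (without replicate 3 at 25 mg/kg/day, -0.23, -0.13 and -0.14), and miR-194 gave -0.20, -0.12 and -0.18. With total gene signal, where the median change was 0.049, 0.14 and 0.19, miR-192 gave 0.12, 0.17 and 0.25 (at 75 mg/kg/day, 95% interval 0.048 to 0.45; adjusted P = 0.0795) and a slope of 0.078 (adjusted P = 0.0553), and miR-194 gave -0.064, 0.18 and 0.26 and a slope of 0.11. For the processed signal and the settings after it, mainly values whose sign differed from the main fit are given. With the processed signal, where the median change was 0.079, 0.10 and 0.10, miR-192 gave 0.12 at 25 and 0.13 at 50. Its slope was 0.037, and that of miR-194 was 0.068. With quantile normalisation miR-192 gave 0.016 at 50 and a slope of 2.6e-05, and miR-194 gave -0.017, -0.0024 and -0.00032 and a slope of 0.0019. With normexp miR-192 gave 0.0038 at 50 and a slope of 8.0e-05. With the brightest probe miR-192 gave 0.032 at 50 and a slope of 0.0019. miR-194 gave -0.0089 at 50 and -0.011 at 75 both with the brightest probe and with probes present on all arrays. The slope of miR-194 was 0.0043 with no slide block, 0.00042 with slide as a random block, 0.0012 on slides with vehicle arrays, and 0.018 with the share of spots above background as a covariate. With only the groups compared, miR-192 gave -0.0096 at 75.

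Leaving out each array in turn, miR-192 ran from 0.030 to 0.10 at 25, -0.043 to 0.035 at 50, -0.028 to 0.054 at 75 and -0.017 to 0.0017 for the slope. miR-194 ran from -0.014 to 0.12, -0.024 to 0.068, -0.034 to 0.058 and -0.021 to 0.022. The slope of miR-192 minus miR-194 ran from -0.027 to 0.021. None of these fits called a member. No paired analysis was possible because the labels carry no replicate numbers. Scaling the processed signal over all probes was not run, since its 75th percentile fell to -2.16 on 1 array. The 2 arrays with the fewest spots above background were also left out, after the data were seen, without a change of direction. In the authors' table without that 1 array, 17, 1, 11 and 3 miRNAs were called at 25, 50 and 75 mg/kg/day and for the slope. Over the other settings, the miRNAs called numbered 0 to 7 at 25, 0 to 4 at 50, 1 to 9 at 75 mg/kg/day and 1 to 15 for the slope, against 0, 2, 4 and 7. Signal near background limits miR-215 and the dimmer miR-194 probe.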
